A study of Mus musculus with 18 samples.

Results

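RNA recovered by immunoprecipitation of a flag-tagged poly(A)-binding protein from mouse brain was measured on 9 arrays, and these 9 immunoprecipitates (IP) are described here on their own. They were chosen by the sample label that names them as immunoprecipitates, and they are 9 of the 18 samples of the series. The other 9 hold total RNA of whole brain (WB) from mice labelled with the same transgene and are given only as values side by side, with no test of IP against WB. All mice carried a BAC (bacterial artificial chromosome) transgene on a C57BL/6J X DBA/2J background, in which a flag-tagged rat PABP cDNA followed by an IRES and eGFP replaced the coding sequence of the orexin gene. The ages given are 11 and 14 weeks, without saying which sample had which age. Per the labels' protocols, mice were perfused with 1% formaldehyde, the protein was captured on anti-flag beads from a homogenate of the brain, crosslinks were reversed, and 5 ng of RNA per sample was amplified. The model is limited by the orexin regulatory sequence that drives the transgene, by rat rather than mouse PABP, and by a capture step that started from brain homogenate and not from sorted cells. The samples are numbered, with no statement on whether a number stands for 1 mouse, so the p-values below refer to differences among samples that may be partly technical.

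Orexin, encoded by Hcrt, is a neuropeptide made by a small set of neurons of the lateral hypothalamus, which project widely through the brain, sustain wakefulness and are lost in narcolepsy with cataplexy. Poly(A)-binding protein coats the tails of messenger RNAs, stimulates their translation through the initiation factor eIF4G and slows their decay. A tagged copy made in one cell type can carry that cell type's messages through a purification, together with any RNA that binds the beads or the protein after the tissue has been broken up.

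Signal was read as log2(intensity + 16), and a gene was represented by its brightest probe set over the 9 arrays. A rank among the 18193 genes named in this way is a rank of array signal, because probe sets bind their targets with different strength, so it orders messages only roughly. The median Pearson correlation between 2 IP arrays was 0.844 over all 45037 probe sets (range 0.805 to 0.906 over 36 pairs), against 0.940 between 2 WB arrays (range 0.922 to 0.954). Spread over the 9 arrays therefore bears on each value below. The labelled hybridization controls, bacterial and phage transcripts added to every array, had mean log2 signals of 14.50 to 15.31 on IP arrays 2, 5, 6 and 8, of 13.69 to 13.94 on IP arrays 1, 3, 4, 7 and 9, and of 13.05 to 13.54 on the WB arrays. Both IP ranges lay above the WB range, and they did not overlap each other. The 3' control probe set of Gapdh exceeded the 5' one by 3.33 to 5.45 log2 units on the IP arrays and 1.33 to 1.78 on the WB arrays. For beta-actin the difference was -1.31 to 0.001 and -0.23 to 0.03. The 18S ribosomal RNA controls read 12.18 to 13.94 on the IP arrays and 14.47 to 15.09 on the WB arrays. Whether these differences bear on single low arrays or on disagreement between probe sets was not tested.

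The immunoprecipitate was led by abundant RNAs of the neuron and of the cell in general. Malat1, a long RNA retained in the nucleus, ranked first, with a lowest, median and highest array value of 15.47, 15.74 and 16.95. The mitochondrial message ND5, a subunit of respiratory complex I, came next at 15.39, 15.73 and 16.51. Snap25, a protein of the synaptic vesicle fusion machinery, was at 15.35, 15.68 and 16.39. On the WB arrays Malat1, Snap25 and ND5 held the ranks 1, 2 and 3. The other 17 of the 20 named genes with the highest signal were Cdk16, Prpf19, Rps9, Mdh1, Pfn2, Ndfip1, Atp6ap2, Olfm1, Drosha, Trp53bp1, Meg3, Atf4, Vdac1, Tuba1a, Ywhab, Hspa8 and Hnrnpk. They include a splicing factor (Prpf19), a ribosomal protein (Rps9), the cytosolic malate dehydrogenase (Mdh1) and a channel of mitochondria (Vdac1). A tubulin (Tuba1a) and the constitutive chaperone Hspa8 were there too. Their means ran from 15.51 ± 0.53 (SD, n = 9) for Hnrnpk to 15.82 ± 0.62 for Cdk16, so steps between neighbours were smaller than these SDs. The SDs include differences between arrays that most of these genes share, so they do not measure the order within an array. Cdk16, for example, ranked 2 to 9 on the single arrays. Atf4, a stress-responsive transcription factor, stood at rank 15 on the IP arrays and at rank 111 on the WB arrays. Drosha, the nuclease that cuts microRNA precursors, stood at 12 and at 87.

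**Figure D1:**
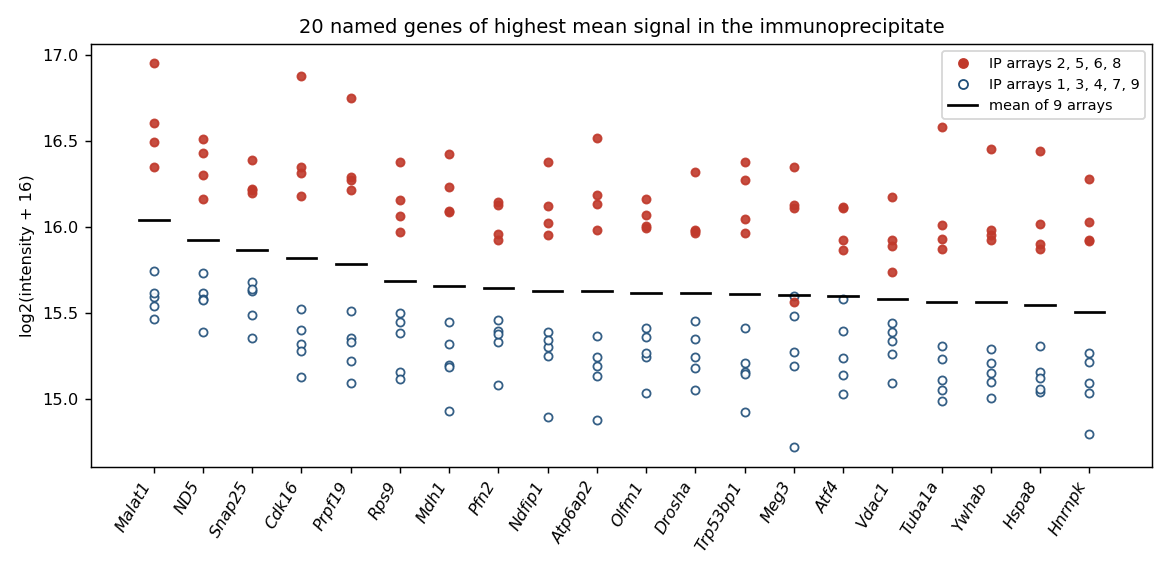
The vertical axis gives log2(intensity + 16) for the 20 named genes with the highest mean signal; each point is 1 of the 9 IP arrays, filled for arrays 2, 5, 6 and 8 and open for the other 5, and the bar is the mean of 9. The filled points lie above the open points for 19 of the 20 genes, Meg3 being the exception, and the spread within a gene is wider than the step from one gene to the next.

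The leading places were stable between arrays but depended on the kind of probe set. Of the 100 genes with the highest mean signal, 62 were among the first 100 on each of the 9 arrays, 96 were among the first 200 on each, and 64 were also among the first 100 on the WB arrays. Probe sets whose identifier ends in _x_at, which can bind other transcripts, represented 45 of these 100 genes but 923 of all 18193 (5.07%). With probe sets ending in _x_at or _s_at left out, 51 of the 100 stayed among the first 100, and 8 of the first 20 named genes did so among the first 20, Malat1, ND5, Snap25, Ndfip1, Trp53bp1, Pfn2, Ywhab and Hnrnpk. Among those that came in were Ywhaz (15.43 ± 0.33, n = 9), a second 14-3-3 protein, and Hmgcs1 (15.11 ± 0.56), an enzyme of cholesterol synthesis. Meg3 shows how far probe sets of a gene can lie apart. This imprinted long RNA had 11 probe sets with IP means from 8.77 to 15.60, and only the _x_at one stood among the leaders.

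Gene lists chosen for the cell types and machinery of the brain differed widely in rank. For reference, 10% of all genes fall in the first 10% of ranks by definition, and 52.6% had a mean of at least 8. Of the poly(A)-binding and translation initiation genes measured, 11 of 17 were in the first 10%. Eif4g2, a relative of eIF4G, ranked 26 (15.37 ± 0.32, n = 9), Pabpn1, the nuclear poly(A)-binding protein, ranked 176 (14.31 ± 0.31), and Eif2s2, a subunit of initiation factor eIF2, ranked 374 (13.56 ± 0.39). Pabpc1, the endogenous counterpart of the tagged protein, ranked 3961, with values of 9.34, 9.81 and 10.43 (lowest, median, highest). Its WB values on that probe set were 9.81, 10.03 and 10.11, inside the IP range. Whether its probes also bind the rat transgene was not tested.

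Energy metabolism and protein folding were as prominent. The first 10% held 30 of 48 oxidative phosphorylation genes, 14 of 27 cytosolic ribosomal protein genes and 10 of 13 heat shock genes, among them Hspa8 and the chaperone Hsp90aa1 (14.47 ± 0.16, n = 9). Markers of neurons in general had 9 of 18 members there, including the neurofilament gene Nefl (14.15 ± 0.30) and the microtubule protein gene Map2 (13.89 ± 0.42). Markers of cells other than orexin neurons were there too, with 8 of 12 cerebellar neuron genes and 7 of 16 astrocyte genes. The same held for 6 of 13 oligodendrocyte and myelin genes and 4 of 15 microglia genes. Aldoc is a member of both the cerebellar and the astrocyte list. The first 10% held 0 of 18 circadian clock genes, 0 of 13 monoamine and cholinergic genes, 0 of 7 pituitary genes and 1 of 18 endothelial and mural genes. Beside the 10% of all genes, lists this small can hold 0 or 1, so these counts do not set them apart. In a list of olfactory receptor and off-tissue genes, taken as a floor, 0 of 18 were in the first 10% and 4 of 18 had a mean of at least 8. One of those, the sperm protamine gene Prm1, reached 10.75 ± 0.88 on an _x_at probe set, so signal of that size does not by itself mark expression. Fewer cells of a type and less RNA per cell cannot be told apart in these homogenates.

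Hcrt itself was dim. Its values were 8.34, 6.49, 7.98, 8.05, 8.60, 8.73, 8.15, 8.77 and 8.98 on IP arrays 1 to 9. Array 2 was low and the other 8 lay between 7.98 and 8.98. With a mean of 8.23 ± 0.74 (SD, n = 9) it ranked 8753 of 18193, and its rank on single arrays ran from 6929 to 14197. On the WB arrays the same probe set read 7.43, 8.04 and 8.66 (lowest, median, highest), a range that overlaps that of the IP arrays. Hcrt has 1 probe set with this symbol, so no other could be set beside it.

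The genes listed for orexin neurons spanned almost the whole range of signal, 11 of the 14 measured having a mean of at least 8. The imprinted zinc finger genes Plagl1 and Peg3 were brightest. Plagl1 read 14.86, 15.10 and 15.65 (lowest, median, highest) at rank 39 on an _x_at probe set, while its other probe sets averaged 10.58 and 9.18. Peg3 had a mean of 13.76 ± 0.35 (n = 9) at rank 315. Next came genes of the regulated secretory pathway and the synapse: the pentraxin Nptx1 (11.53 ± 0.32), the neurosecretory precursor Vgf (11.30 ± 0.39) and the granin Scg2 (10.94 ± 0.16). The vesicular glutamate transporter Slc17a6 (9.86 ± 0.61), the pentraxin Nptx2 (9.98 ± 0.66) and the membrane ligand Dlk1 (10.07 ± 0.47) lay close together and did not differ beyond their spread. The homeobox factor Lhx9, expressed in developing orexin neurons, was at 8.74 ± 0.46. Pdyn, the prodynorphin gene coexpressed with orexin, was at 6.16 ± 0.95, with 8.46 on array 7 and 6.69 or less on the other 8.

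Among 14 measured genes of the hypothalamic and neurohypophyseal peptide list, which includes the histamine-synthesising enzyme gene Hdc, Crh had the highest signal. Crh encodes corticotropin-releasing hormone, and its IP values were 13.04, 13.76 and 14.60 (lowest, median, highest) at rank 296, while its WB values on the same probe set were 11.16, 11.38 and 11.87. Every IP array lay above every WB array, but how many of all genes had such a separation was not counted. The brightest probe set of Snap25 had it too, at 15.35 to 16.39 against 14.91 to 15.31 on the WB arrays. That of Ttr did not, at 14.29 to 15.64 against 13.86 to 14.33. Crh also has only 1 probe set. The tachykinin gene Tac1 followed at 11.27 ± 0.55 (n = 9), then somatostatin (Sst, 10.10 ± 0.20), neuropeptide Y (Npy, 9.88 ± 0.30) and oxytocin (Oxt, 9.88 ± 0.59), the last 3 within their spread of each other. Pmch, which encodes melanin-concentrating hormone and marks the neurons that intermingle with orexin cells, was at 8.35 ± 0.54, next to Hcrt at 8.23. Vasopressin (Avp, 7.33 ± 0.65), galanin (Gal, 7.34 ± 0.84), thyrotropin-releasing hormone (Trh, 6.99 ± 1.16), growth hormone-releasing hormone (Ghrh, 7.22 ± 1.16) and histidine decarboxylase (Hdc, 6.46 ± 1.41) were dimmer and more variable. The order of the dim members is not resolved at these spreads.

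**Figure D2:**
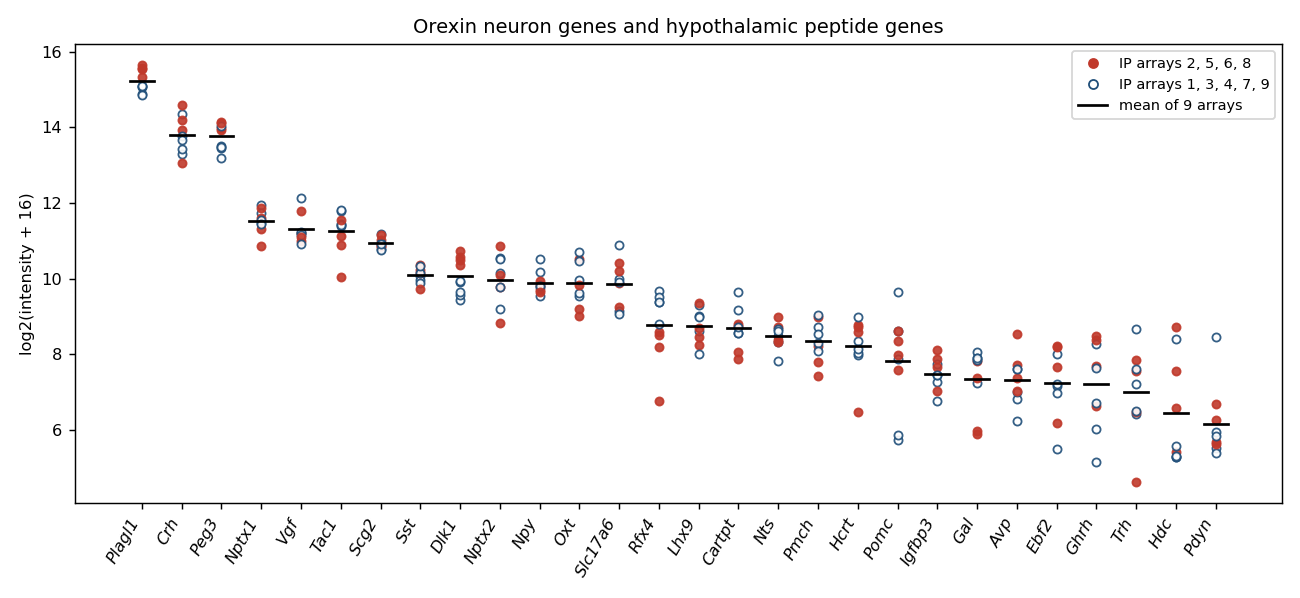
The vertical axis gives log2(intensity + 16) for the measured genes of the orexin neuron and hypothalamic peptide lists, ordered by mean; points are single IP arrays, filled for arrays 2, 5, 6 and 8, and bars are means of 9. Plagl1, Crh and Peg3 lie above 13 on every array, Hcrt lies between 6.49 and 8.98, and points scatter more widely towards the right.

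Spread depended on signal. The median SD over the 9 IP arrays was 0.88 log2 units for 6295 genes with a mean between 6 and 8, 0.58 for 5885 genes between 8 and 10, 0.45 between 10 and 12, and 0.35 for 922 genes between 12 and 14. It was 0.40 for the 241 genes above 14. The WB values for the same genes were 0.47, 0.27, 0.20, 0.18 and 0.17. The genes with the lowest SD among those with a mean of at least 10 were Prkcb (12.89 ± 0.08, n = 9), a protein kinase C, and Dctn1 (10.07 ± 0.10), a subunit of the dynein activator dynactin. Next came Snhg11 (13.97 ± 0.11), a small nucleolar RNA host, Rbm25 (11.58 ± 0.11), a splicing regulator, Btbd1, Slc25a5, Man1c1, Nr2f2, Abhd12 and Sos2, with SDs of 0.11 to 0.13 among these 8. In the same range of means, the highest SDs belonged to Eif2s3y (3.05), described below, Grk3 (1.86), Trps1 (1.75), Gfra2 (1.72) and Enho (1.46), followed by Dlgap2, Xrcc3, Elmod3, Mlf2 and Arrb2 at 1.30 to 1.38. Grk3, a kinase of G protein-coupled receptors, ran from 6.93 on array 6 to 13.10 on array 5, but its next probe set went the other way (r = -0.82).

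**Figure D3:**
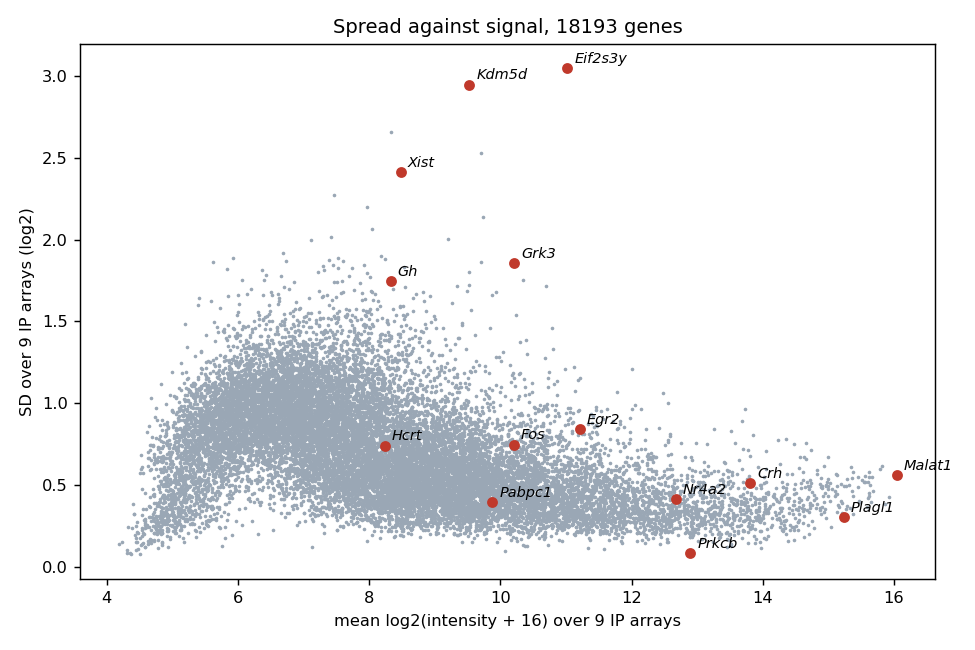
The horizontal axis gives the mean log2(intensity + 16) and the vertical axis the SD over the 9 IP arrays; each grey point is 1 of 18193 genes and the red points are labelled. Above a mean of 8 the cloud narrows with rising signal, Prkcb sits on its lower edge with an SD of 0.08, and Kdm5d, Eif2s3y and Xist stand far above it.

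The brightest genes differed between arrays in the same way as the hybridization controls. Snap25 read 16.20 to 16.39 on arrays 2, 5, 6 and 8 and 15.35 to 15.68 on the other 5, with no overlap. Of the 241 genes with a mean of at least 14, 188 (78.0%) had all 4 of these arrays above the other 5, against 463 of all 18193 genes, 2.54%. Of the same 241 genes, 1 had them so after scaling on the hybridization controls and 20 after quantile normalization. Maximum intensities were 83268 to 133669 on the 4 arrays and 45237 to 54738 on the other 5, while array medians overlapped (153 to 181 against 172 to 203).

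Ttr and Mbp, used as markers of choroid plexus and myelin, were among these bright genes. Ttr, the thyroxine carrier of the choroid plexus, read 15.38 to 15.64 on the 4 arrays and 14.29 to 14.81 on the other 5. This was an _x_at probe set, and the other _x_at one of Ttr had the same step (15.29 to 15.47 against 14.21 to 14.75). Its _s_at one (12.03 to 13.41 against 12.38 to 12.73) and its _a_at one (6.47 to 10.14 against 8.93 to 10.61) did not. Mbp, myelin basic protein, read 15.82 to 16.30 and 14.65 to 15.10, also on an _x_at probe set. The arrays thus form 2 clusters for both of these brightest probe sets, and no pooled correlation is given. The fits below use these probe sets and mainly compare the clusters. In limma fits of the other 45036 probe sets, 187 (0.415%) had a slope on Ttr with an adjusted p below 0.05, 175 of them positive, and 225 (0.5%) had one on Mbp, 208 of them positive. Both counts fell to 0 after quantile normalization, after scaling on the hybridization controls, without the intensity trend in the fit, and in the 5 arrays left without 2, 5, 6 and 8. Without array 1 they were 77 and 96, and without array 4 the count for Mbp was 139.

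Ranked over all 9 arrays, across both clusters, the genes nearest to Ttr were Pfn2, Fam160b2, Mdh1, Zmynd11 and Rtn4, and those nearest to Mbp were Ywhab, Drosha, Ppp2r1a, Prpf19 and Cfl1, all with means above 14. They encode cytoskeletal, metabolic, signalling and RNA-processing proteins; none was a member of the marker list of its anchor. Prpf19 read 16.21 to 16.75 on arrays 2, 5, 6 and 8 and 15.09 to 15.51 on the other 5. Cdk9, the kinase of elongation factor P-TEFb, went the other way, at 8.09 to 9.40 and 9.89 to 10.39. Of the other members of the marker lists, 0 of 11 choroid plexus genes were called with Ttr and 0 of 12 myelin genes with Mbp, where 0.415% and 0.5% of all probe sets were called, so lists of this size carry no information on the markers. Mbp was called with Ttr and Ttr with Mbp, and Snap25 and the astrocyte genes Gja1 and Glul were called with both. The median slope of the 12 myelin genes on Mbp was -0.10, beside -0.06 for all genes. The probe sets of Mbp itself differed. Both other _x_at ones had the same step, at 15.11 to 15.82 on the 4 arrays against 14.24 to 14.71, and at 14.79 to 15.36 against 13.91 to 14.42. A bright _a_at one with a mean of 14.78 overlapped, at 14.77 to 15.08 on the 4 arrays and 14.44 to 14.82 on the other 5. An _a_at one with a mean of 10.12 ran from 9.22 to 9.58 on the 4 arrays and from 9.12 to 12.24 on the other 5, without that step. One with a mean of 11.19 overlapped too, at 10.85 to 11.18 and 10.97 to 11.52.

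No probe set varied with Hcrt at the threshold. In the limma fit 0 of 45036 (0%) had an adjusted p below 0.05, the lowest being 0.119, and 3701 had an unadjusted p below 0.05. The genes most like Hcrt over the 9 arrays, among those with a mean of at least 8, were Prpf4, a splicing factor (r = 0.96, rho = 0.88), the signalling adaptor Rassf2 (0.95, 0.90), the ion channel subunit Asic4 (0.95, 0.83), the synaptic priming protein Unc13c (0.95, 0.87) and Fubp1, a binder of single-stranded DNA (0.95, 0.78). Without arrays 2 and 9, the 2 farthest from the Hcrt median, r became 0.76, 0.90, 0.68, 0.66 and 0.58 in that order. Fubp1 had a slope of 1.32 ± 0.22 (SE), with an adjusted p of 0.133. Pip5k1a ran opposite to Hcrt (r = -0.96, and -0.95 without the same 2 arrays) at an adjusted p of 0.316. Of the orexin neuron list, 0 of 13 other members were called, and their r with Hcrt ran from -0.30 for Pdyn to 0.63 for Nptx1. Without arrays 2 and 9 it ran from -0.67 for Rfx4 to 0.77 for Dlk1, and Nptx1 was at -0.01. Over all 9 arrays Rfx4 had been at -0.11 and Dlk1 at -0.09. Plagl1 and Peg3 went from -0.25 and -0.22 to 0.74 and 0.60, and Lhx9 from -0.26 to -0.46. Scaling on the hybridization controls raised the count called from 0 to 1311, 1302 of them positive.

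The mean correlation between members over the IP arrays differed from list to list. Of 22 lists with a value, 9 were at 0.1 or above, 3 at -0.1 or below and 10 between. Over all pairs of the 9578 genes with a mean of at least 8, the mean r over the 9 arrays was 0.00304. It was -0.01 within the orexin neuron list, -0.02 among astrocyte genes, 0.03 among myelin genes, 0.04 among ribosomal protein genes and 0.07 among oxidative phosphorylation genes. On the WB arrays the last 2 stood at 0.33 and 0.42, beside 0.00690 for all pairs of the same genes. The pan-neuronal genes had 0.11 in IP and 0.36 in WB, and the microglia genes -0.12 and 0.30. The highest values in IP were those of 7 members of the monoamine and cholinergic list (0.33), none of them cholinergic, and 9 immediate early genes (0.27). After them came meningeal (0.18), cerebellar neuron (0.16), peptide (0.13), GABAergic (0.12), heat shock (0.11), pan-neuronal and forebrain glutamatergic genes (0.11 each). The lowest were choroid plexus genes (-0.12) and the sex-linked genes (-0.31). These means are descriptions over 9 arrays shared by all pairs. The sign of the orexin, astrocyte, microglia, endothelial, striatal, choroid plexus, poly(A)-binding and off-tissue values changed under at least 1 of the scalings tried, and scaling on the hybridization controls raised the mean of all pairs to 0.50.

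The members of the monoamine and cholinergic list measured above 8 were all monoamine genes. They were the dopamine transporter Slc6a3, the vesicular transporter Slc18a2, dopamine beta-hydroxylase Dbh, the noradrenaline transporter Slc6a2, tryptophan hydroxylase Tph2 and the oxidases Maoa and Maob. Slc6a3 had a mean of 8.15 ± 0.96 (n = 9) and ranged from 6.36 on array 5 to 9.25 on array 1. Tph2 had a mean of 8.49 ± 0.67 and read 7.59 on arrays 5 and 8 and 9.38 on array 7. Maob was the brightest at 10.02 ± 0.53. Their mean r was 0.16 on the WB arrays. It stayed positive under each scaling, at 0.23 after quantile normalization and 0.17 after median centring, and at 0.24 without arrays 2, 5, 6 and 8.

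Immediate early genes are transcribed within minutes of neuronal activity through factors already present in the cell, such as CREB, which binds cyclic AMP response elements (CREs), and SRF, which binds CArG boxes. Of the 17 listed, 9 had a mean of at least 8: Fos, Jun, Egr1, Egr2, Egr3, Nr4a1, Nr4a2, Nr4a3 and Dusp1. All but the phosphatase Dusp1 are transcription factors. RefSeq promoter windows (GRCm38.p6), searched over 250 bases before the annotated start, matched 7 of the 9. To show the element that several of these genes share, 30 bases around the copy of the CRE core nearest to the start are printed, with each copy of TGACG, or CGTCA on the other strand, in capitals, for genes with 1 annotated start.
Fos, chr12:85473811-85473840, plus strand: cagttccgcccagTGACGtaggaagtccat
Nr4a1, chr15:101266793-101266822, plus strand: gcccctctccatgCGTCAcggagcgcttaa
Nr4a2, chr2:57124098-57124127, minus strand: cTGACGgggccgcTGACGcgcttggccgcg
Nr4a3, chr4:48045145-48045174, plus strand: cctgtggcataaaTGACGtgccgagagagc
Dusp1, chr17:26508596-26508625, minus strand: gtagggcgggTGACGTCAccgcccggtcac
The core began 66 bases before the start of Fos, 40 before that of Nr4a1, 111 before that of Nr4a2, 147 before that of Nr4a3 and 140 before that of Dusp1. It was present in at least 1 window for 6 of the 7 genes, against 19.8% of 27025 genes counted in the same way and 17.7% of 32817 single windows. Egr2 has 5 windows, 3 of them with the core, and Jun was without it. The full palindrome TGACGTCA, which contains both cores overlapping, was found for Dusp1 alone among them and in 1.55% of all windows. A CArG box was found for Egr2 alone and in 1.47% of all windows. A match is a string of letters and not evidence of binding.

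These genes differed widely in signal. Nr4a2 read 12.14, 12.67 and 13.45 (lowest, median, highest), Egr1 11.81, 12.50 and 13.50, and Egr3 11.07, 12.12 and 12.63. Jun had a mean of 11.29 ± 0.53 (n = 9) and Dusp1 of 10.33 ± 0.31. Fos read 9.78, 10.22, 8.78, 9.67, 10.11, 10.54, 10.90, 11.33 and 10.48 on arrays 1 to 9, a range of more than 2 log2 units. Array 8 was the highest and array 3 the lowest. Arc (7.72 ± 1.07), Npas4 (6.72 ± 0.79), Fosb (6.36 ± 1.06) and Egr4 (5.67 ± 0.47), also induced by activity, had means below 8.

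Several of them had similar profiles over the arrays, though none passed the test. Nr4a2, a nuclear receptor, was highest on array 8 and low on arrays 1, 3 and 4, as Fos was, and the correlation between the 2 was r = 0.84 and rho = 0.82 over 9 arrays. Without arrays 3 and 8, the 2 farthest from the Fos median, r was 0.70. Egr3 correlated with Nr4a2 at 0.77 and with Egr2 at 0.74 (rho 0.77 and 0.65). Of the 36 pairs, 27 (75.0%) had a positive r and 13 (36.1%) an r of at least 0.5, against 50.1% and 10.4% of all pairs of genes with a mean of at least 8. On the WB arrays 31 of the 36 were positive, against 50.6% of all pairs. The pairs named above were not all alike there: r was 0.03 for Fos with Nr4a2, -0.31 for Egr3 with Nr4a2 and 0.42 for Egr3 with Egr2. Jun was different, at -0.40 with Egr2 and -0.13 with Fos. In the limma fit on Fos, 0 of 45036 probe sets (0%) passed, with the lowest adjusted p at 0.774 and 2325 below an unadjusted p of 0.05. Nr4a2 had a slope of 0.47 ± 0.16 (SE) with an adjusted p of 0.958, and 0 of the 16 other listed genes were called. The genes closest to Fos by r were Qtrt2 (0.94), Osbpl9 (0.91), Stx3 (0.90), Btf3l4 (0.89) and Gas6 (0.88), and Plekhg1 was the most opposite (-0.92).

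Other probe sets bear on this unevenly. The second probe set of Egr2 followed the first (r = 0.90), with 8.86, 9.55 and 11.24 beside 9.57, 11.39 and 12.09. The other 5 probe sets of Nr4a2 correlated with its brightest at -0.21 to 0.46. With the mean over probe sets of a gene, the mean r of the list was 0.07, and without arrays 2, 5, 6 and 8 it was 0.06. Leaving out 1 array at a time gave 0.12 (without array 8) to 0.35.

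**Figure D4:**
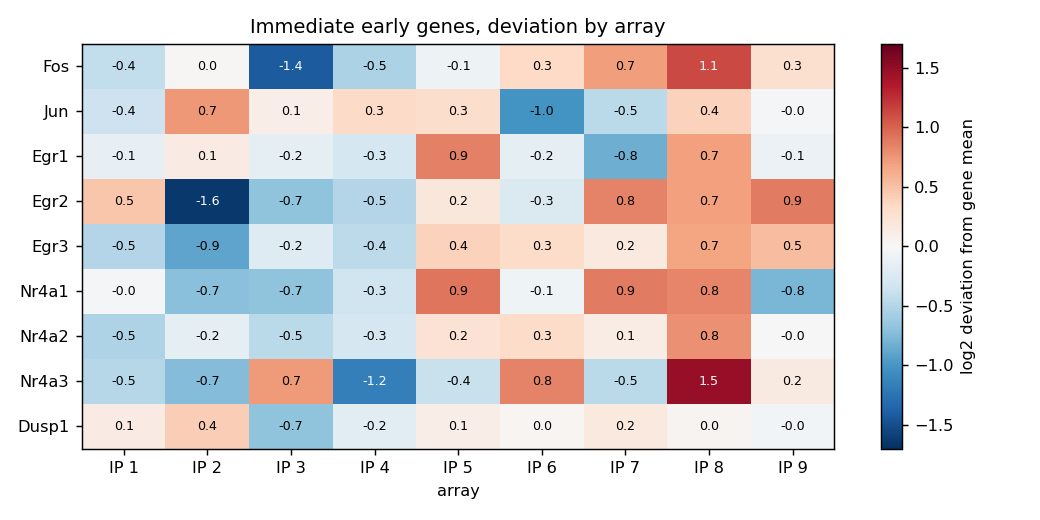
Rows are the 9 immediate early genes with a mean of at least 8, columns the 9 IP arrays, and the number and colour give the log2 deviation from the gene's mean over the arrays. Array 8 is above the mean for all 9 genes, by 0.05 for Dusp1 and by 1.48 for Nr4a3, array 4 is below it for every gene but Jun, and Jun is lowest on array 6.

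Clustering of the 2000 most variable genes with a mean of at least 8 (SD of 0.72 or more) gave 11 groups of 30 genes or more, which held 804 genes (40.2%). The groups were made from these 9 arrays, so their internal correlations (mean r 0.69 to 0.73) are a result of the choice. On the WB arrays, which the clustering did not use, the mean r of the same genes was -0.02 to 0.06 over the 11 groups. In 6 groups with 596 genes the shared pattern was 1 low array. The first, 167 genes, had a mean deviation of -2.07 log2 units on array 2. Its leading genes included Arrb1, an adaptor that silences receptors, Irx2, a homeobox factor, Rtn4r, the receptor of Nogo, and Ntsr2, a neurotensin receptor of astrocytes that read 6.35 on array 2 and 8.16 to 9.25 on the others. Egr2 and the ATP synthase subunit Atp5b, at 5.94 on array 2, belonged to it too.

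The second group of 152 genes had a mean deviation of -2.18 on array 6, led by Nrbp2, Dedd, Hacd2 and Cetn4 and with the clock output factor Hlf among its members. The third (99 genes, led by Flii, Fbxo25 and Eral1) was at -2.24 on array 5 and held Slc6a3 and Rfx4. The fourth (72 genes, led by Ccdc77, Nfe2l3 and Mettl5) was at -2.12 on array 8, and the fifth (64 genes, led by Gstt2, Akr1e1 and Ptprf) at -2.02 on array 7. The eighth (42 genes, led by Rcn3, Cby2 and Caskin2) was at -1.92 on array 5 and at 1.10 on array 6. The other 5 groups were low on more than 1 array. The sixth, with the growth cone protein Gap43, the myelin protein Mag and the vesicular GABA transporter Slc32a1, was lowest on array 6, at -1.34, and next lowest on array 8.

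**Figure D5:**
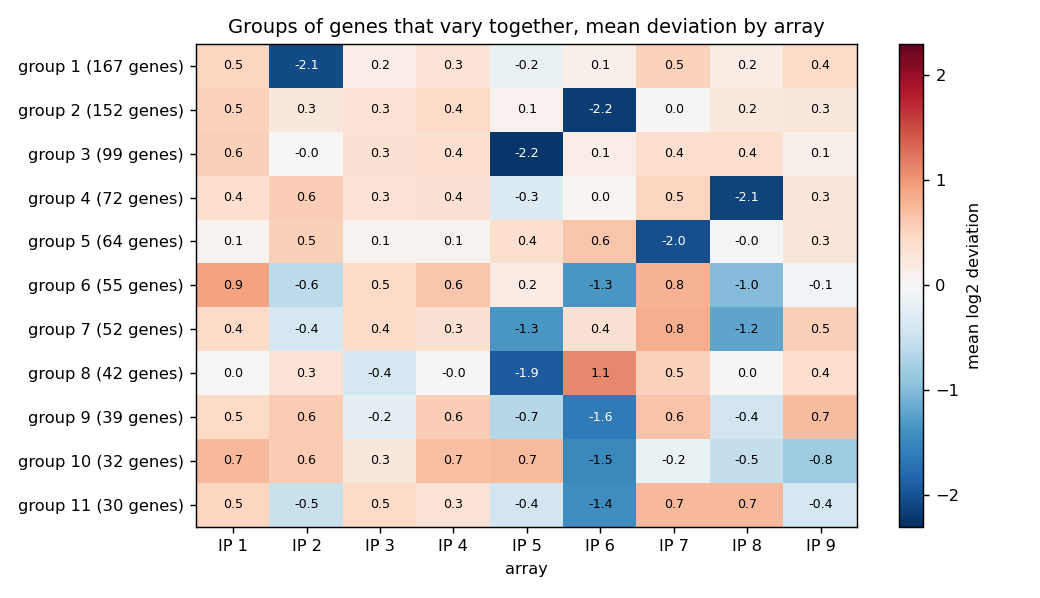
Rows are the 11 groups of genes with their sizes, columns the 9 IP arrays, and the number and colour give the mean log2 deviation of the group's genes from their own means. Groups 1 to 5 and group 8 each have 1 array near -2 and values above -0.5 on the others.

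Single low arrays were also counted probe set by probe set. Of 10300 probe sets with a median of at least 9 on the IP arrays, 212 (2.06%) had a value more than 3 log2 units below the median of the other 8 arrays, and there were 245 such values in all. Arrays 1 to 9 held 2, 36, 17, 12, 28, 78, 24, 33 and 15 of them, so array 6 had the most, and each WB array held 4 or fewer. Nrbp2 read 8.89 on array 6 and at least 11.84 on the others. Where the gene had another probe set with a median of at least 9, that probe set was lower by more than 1 on the same array in 18 of 121 cases (14.9%), against 5.33% of all 42564 such comparisons. Of the 18, 10 were Eif2s3y, Kdm5d and Orly on arrays 3 and 4, described below, and without these genes it was 8 of 111 (7.21%). Ptn, a heparin-binding growth factor, was at 7.61 on array 6 by one probe set, where the other read 15.30. Nfix was low there by both, at 8.51 and 9.44.

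Pairs of probe sets of 1 gene, which measure the same message at different places, were weakly correlated over the arrays. For 3522 genes with both brightest probe sets above 8, the median r was 0.10 (quartiles -0.20 and 0.42), and 9.20% exceeded 0.7. The WB median was 0.16. Of 1015 genes with an SD of at least 0.5 in both, 30 (2.96%) had an r of at least 0.9. Of these 30, 26 involved probe sets ending in _x_at or _s_at, which may share probes, and 4 did not: Kdm5d, Egr2, Cdc42bpa and Klhdc3. Cdc42bpa, a kinase of the actin cytoskeleton, had a mean of 11.59 ± 0.57 (n = 9) and was at 12.27 to 12.29 on arrays 2, 5 and 6 and at 10.75 on array 9. Klhdc3, a substrate receptor of a ubiquitin ligase, ran from 11.60 on array 7 to 13.45 on array 3 (r = 0.99 between its probe sets). Among the 26, the extracellular matrix protein gene Tgfbi stood out on array 6, at 12.02 against a mean of 9.36.

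A few probe sets divided the arrays into separate levels. A gap of at least 2 log2 units with at least 2 arrays on each side was found for 43 of 17275 probe sets (0.249%) with a mean of at least 8, against 10 of 22433 on the WB arrays. For 9 of the 43, arrays 3 and 4 were set apart from the other 7. Kdm5d, a histone demethylase gene of the Y chromosome, read 4.26 and 4.53 on arrays 3 and 4 and 10.12 to 12.00 on the others. Eif2s3y, a Y-linked subunit gene of initiation factor eIF2, read 5.56 and 5.97 against 11.45 to 13.31. Xist, the RNA that silences the inactive X chromosome, was opposite, at 12.02 and 13.24 on arrays 3 and 4 and 6.59 to 8.06 on the others. Arrays 3 and 4 are thus the only IP arrays with high Xist and low Y-linked signal. On the WB side high Xist fell on arrays 2, 3, 6 and 7. Under 4 of the 9 replicate numbers the IP and WB arrays therefore differed in Xist.

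The others of the 9 were the second probe set of Kdm5d, 4 probe sets without a listed gene symbol, and Orly, a Y-linked gene. Orly read 5.56 and 6.71 on arrays 3 and 4, 9.34 to 10.47 on the other 7, and 4.67 to 5.88 on all WB arrays. The remaining 34 probe sets showed 19 different divisions of the arrays, and in 33 of them the smaller side was the low one. Array 6 was on that low side for 23. By its second probe set, the neuronal transcription factor gene Mef2a was at 4.42 to 5.52 on arrays 6 and 7 and 8.90 to 10.08 on the others, with WB values of 10.04 to 10.40. Its brightest probe set had no such step and read 9.72 to 10.65. By dimmer probe sets, the splicing cofactor Son was low on arrays 6, 7 and 9, and the signalling regulator Rgs2 on arrays 6 and 8. Another, brighter probe set of Son read 11.54 to 13.25 on those 3 arrays and 11.78 to 12.54 on the others, and one of Rgs2 13.74 to 14.07 against 13.16 to 13.78, without that drop. With 64 in place of 16 added before the log, 17 probe sets had such a gap, and with a gap of 1.5 there were 107.

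Signal of several pituitary hormone genes was highest on 1 array. Growth hormone (Gh), a product of the anterior pituitary, read 12.60 on array 1 and 7.08 to 9.50 on the other 8. By the brightest probe set, 5 of 7 measured pituitary genes were highest on array 1, the others being prolactin (Prl, 9.63), the Pomc precursor (9.66), the glycoprotein hormone alpha chain (Cga, 7.80) and the beta chain of follicle-stimulating hormone (Fshb, 7.41). Tshb was highest on array 9 (8.50) and Lhb on array 3 (7.16). Over all 11 probe sets of these genes, 7 were highest on array 1. The share of all genes that were highest on array 1 was not counted. Of the pituitary genes, Gh alone had a mean of at least 8. Control probe sets taken as absent reached 7.34 on the IP arrays, so the values of Cga and Fshb lie near the floor. The second one of Pomc read 7.14 there and was highest on array 7 (8.02), and one of Gh was highest on array 2 (7.86). Gh reached 13.13 on 1 of the WB arrays, whose median was 7.83. Whether pituitary tissue was carried along was not tested.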

How the data were processed

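The authors deposited linear intensities for 45101 probe sets of a mouse expression array; MAS5, without a version, is the tool named per the submitters' processing notes. Values are thus already summarised per probe set, and no scanner file was used here. For the re-analysis the 64 control probe sets were left out and log2(intensity + 16) was taken. Of 45037 probe sets, 34945 had 1 gene symbol in the platform annotation and covered 18193 genes; 34741 matched a RefSeq gene table by Entrez ID. Slopes on Hcrt, Fos, Ttr and Mbp were fitted over the 9 IP arrays for all other probe sets with limma 3.58.1 in R 4.3.3 (intensity trend, Benjamini-Hochberg adjustment). The fit was tried on simulated data with noise drawn independently for each probe set. That trial does not show how it performs on probe sets that vary together. Genes were clustered by average linkage on 1 - r, with the tree divided at 0.4. The precision is limited by the 9 arrays. The members and the 24 gene lists were chosen with earlier results of these data known.

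Named are Hcrt and Pabpc1, the 20 genes of highest signal, the 10 highest and 10 lowest SDs with a mean of at least 10, members of the orexin, peptide, immediate early, sex-linked and choroid plexus lists, for each other list its 3 brightest and 2 most variable members, the 5 nearest and 3 most opposite genes of each anchor, 8 leading genes per group and probe sets in separate levels. Genes named for single low arrays, for agreement between probe sets, as pituitary or monoamine markers, as list members inside a group, or as entering the first 20 by other probe sets were chosen after their values were seen. Alternatives were pseudocounts of 1 and 64, other scalings, filters, gene summaries and clustering settings, and leaving out each array. Leaving out arrays 2, 5, 6 and 8 together, leaving out probe sets that can bind several transcripts, the counts of single low arrays and of agreeing probe sets, and leaving Y-linked genes out of the former were added after seeing the data.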

Additional observations from a re-analysis of the deposited data

Results flagged for a closer look

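Dixon's ratio (the gap of the extreme array to its neighbour over the whole range) was computed for 38 measures and genes, and 3 exceeded its 95% critical value for 9 arrays. Chance flags about 1 in 20. Hcrt was low on array 2, at 6.49 against 7.98 to 8.98 on the other 8, with a ratio of 0.599. Gh was high on array 1, at 12.60 against 7.08 to 9.50, with a ratio of 0.562. Array 6 held 78 values more than 3 log2 units below the median of the other arrays, against 2 to 36 on the others, with a ratio of 0.553.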

How the results depend on the processing

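No paired analysis was possible because no result comes from a test between groups. Of 105 values under alternatives other than leaving out an array, 66 kept to the main value and 39 moved. Scaling on the hybridization controls moved most: the first component's share went from 17.0% to 38.1%, lists with a mean r of at least 0.1 from 9 to 21, the median r between probe sets from 0.097 to 0.608, agreeing genes from 30 to 181, low values from 245 to 550, calls with Hcrt from 0 to 1311 and with Ttr and Mbp to 0. Median centring gave 14 lists, 0.149, 52 agreeing genes, 364 calls with Ttr and 368 with Mbp. Quantile normalization, no trend, and 5 arrays without 2, 5, 6 and 8 each gave 0 calls with both. With probe sets of a mean of at least 8 alone, these calls were 366 and 397 and the share was 19.6%. Of the first 100 genes, 34 remained with means over probe sets and 51 without shared probe sets. Spearman's rho left 5 lists. A pseudocount of 64 gave 17 separate levels and 80 low values, and a gap of 1.5 gave 107 separate levels. The groups, 11, became 6 with the tree divided at 0.3 and 6 with 1000 genes.

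Leaving out each array gave 96 to 100 of the first 100 genes, a share of 18.6% to 20.1%, 5 to 11 lists (5 without array 9), 10 to 20 groups (17 to 20 without array 1, 2, 3 or 9), 31 to 45 separate levels, a median r of 0.097 to 0.114, 32 to 46 agreeing genes (46 without array 3) and 200 to 253 low values. Calls were 77 to 171 with Ttr and 96 to 186 with Mbp, lowest without array 1 (139 with Mbp without array 4), and 0 with Hcrt and Fos by limma. Causes were not tested. Fewer arrays leave fewer components, and the shares were not adjusted for this. Signal limits precision: genes with a mean of 6 to 8 had the widest spread.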
